A study of Mus musculus with 4 samples.

Results

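The genes described here make, sense or hand on leukotrienes and prostaglandins, the eicosanoid mediators derived from arachidonic acid. The set names 10 genes: Alox5, Alox5ap, Lta4h and Ltc4s for leukotriene synthesis, Cysltr1 as a leukotriene receptor, Ptgs1, Ptgs2, Hpgds and Ptges for prostaglandin synthesis, and Ptger4 as a prostaglandin receptor. Each gene was taken from its brightest probe set among those that carry exactly 1 gene symbol. Of the 10 genes, 9 were found, out of 17624 genes kept from the arrays, and each of the 9 had 1 such probe set. Ptgs1, the constitutive cyclooxygenase, had no probe set with its name in the annotation used and was not analysed here.

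The RNA came from microglia, the resident macrophages of the brain, isolated from the whole brain of male C57BL/6J mice. Mice treated with OVA formed the allergy group and mice treated with PBS the controls, each at postnatal day 70 (P70) and, as separate groups, at P30. Cells were collected 1 day after an intranasal challenge, and each of the 4 groups was a pool of 4 samples on 1 array. With 1 array per group there were no replicates, so no test was made and every difference below is one between single arrays. The small number of arrays limits the precision.

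Levels are log2 of the deposited intensity. A floor of 7.18, the median over genes of the mean level on the 4 arrays, marked the 8812 genes at or above it as expressed. The median intensity over all probe sets was 105 in OVA and 111 in PBS at P70, while it was 132 for OVA and 131 for PBS at P30. All 9 microglial markers found, among them Tmem119, P2ry12 and Sall1, stood above the floor on all 4 arrays. Markers of other cells were present as well. Of 13 neutrophil markers, 11 were expressed. The mean log2 level of all 13 was 12.1 in OVA and 12.3 in PBS at P70, against 9.12 for OVA and 9.91 for PBS at P30. In pooled RNA, fewer cells of a type and less RNA per cell cannot be told apart. No member lay near the upper limit of an array: the brightest was at least 3.88 log2 units below it on each of the 4 arrays.

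Leukotriene synthesis starts when 5-lipoxygenase, helped by its membrane partner FLAP, converts arachidonic acid to leukotriene A4. A hydrolase turns that intermediate into leukotriene B4, which attracts neutrophils, and a synthase joins it to glutathione to give the cysteinyl leukotrienes, which constrict airways and make vessels leaky. Cyclooxygenases make prostaglandin H2 from the same arachidonic acid, and separate synthases turn it into prostaglandin D2 or E2. Cells of the myeloid lineage, microglia among them, are the main producers of leukotrienes, and cyclooxygenase-2 is known as an inducible gene.

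RefSeq gives a window of 250 bases before to 50 bases after the transcription start for 8 of the 10 genes (build GRCm38.p6), all but Alox5ap and Cysltr1. The windows of 4 genes are shown, chosen by how the genes measured or by role, and no result on levels rests on the sequences. Ltc4s and Hpgds were among the genes higher at P70, Alox5 had the largest OVA difference at P70 and Ptgs2 is the inducible member. Capitals mark the motifs found: GGGCGG (GC box), GAGGAAGT (an extended form of the site bound by the macrophage factor PU.1), TGACG (a core of the cyclic AMP response element, CGTCA on the other strand) and CACGTG (E-box).
Alox5 (chr6:116461129-116461428, minus strand): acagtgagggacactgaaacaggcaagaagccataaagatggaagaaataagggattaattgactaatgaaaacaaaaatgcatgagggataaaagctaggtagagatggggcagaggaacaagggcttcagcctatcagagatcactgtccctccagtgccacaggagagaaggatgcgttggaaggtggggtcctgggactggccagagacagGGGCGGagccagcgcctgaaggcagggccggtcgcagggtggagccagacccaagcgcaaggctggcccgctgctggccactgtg
Ltc4s (chr11:50238483-50238782, minus strand): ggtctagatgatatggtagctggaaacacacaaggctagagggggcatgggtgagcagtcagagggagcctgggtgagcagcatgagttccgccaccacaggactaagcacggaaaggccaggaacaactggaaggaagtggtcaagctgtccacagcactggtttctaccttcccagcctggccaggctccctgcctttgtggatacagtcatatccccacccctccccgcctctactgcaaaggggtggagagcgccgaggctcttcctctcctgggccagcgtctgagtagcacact
Ptgs2 (chr1:150099781-150100080, plus strand): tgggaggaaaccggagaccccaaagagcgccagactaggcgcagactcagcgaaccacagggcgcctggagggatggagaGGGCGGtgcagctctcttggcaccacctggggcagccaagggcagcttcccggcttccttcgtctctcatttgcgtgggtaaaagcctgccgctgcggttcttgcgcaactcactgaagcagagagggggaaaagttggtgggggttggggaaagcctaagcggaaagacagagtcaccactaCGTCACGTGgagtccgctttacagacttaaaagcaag
Hpgds (chr6:65144681-65144980, minus strand): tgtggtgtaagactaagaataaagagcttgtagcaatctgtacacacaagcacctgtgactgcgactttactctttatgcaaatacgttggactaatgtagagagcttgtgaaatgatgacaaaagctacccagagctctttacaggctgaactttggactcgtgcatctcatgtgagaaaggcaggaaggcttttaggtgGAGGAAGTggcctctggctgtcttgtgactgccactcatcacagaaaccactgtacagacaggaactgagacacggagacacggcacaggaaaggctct

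Both strands were searched for 8 motifs. The PU.1 motif occurred in 2 of the 8 windows, those of Hpgds and Ptgs1, and in 3.20% of all 32851 windows in the table. The GC box occurred in 4 (Alox5, Ptger4, Ptges and Ptgs2), against 35.7% of all windows. The cyclic AMP core (20.8% of all windows) and the E-box (7.15%) occurred in Ptgs2 alone, where they overlap just after the start. None of the 8 windows held TATAAA (13.6%), TGACGTCA (1.79%), TGANTCA, the AP-1 motif (7.81%), or the NF-kB motif searched (0.411%). These are matches of letters, and the Ltc4s window had none of the 8. Shorter forms of the PU.1 motif were not searched.

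Alox5 encodes 5-lipoxygenase, the first enzyme of leukotriene synthesis. Its level was 9.25 in OVA and 8.64 in PBS at P70, and 8.72 in OVA and 8.67 in PBS at P30. The OVA array at P70 was high and the other 3 lay close together. OVA minus PBS was 0.61 at P70, or 1.53-fold, and 0.05 at P30. At P70, 312 of the expressed genes (3.54%) had a larger positive difference. Alox5 was the member nearest the limit of 1.5-fold (0.585 on the log2 scale). It stood at 0.51 after centring each array on its median and at 0.48 after centring along the level, both short of it.

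Alox5ap encodes FLAP, the membrane protein that presents arachidonic acid to 5-lipoxygenase. It stood at 16.05 in OVA and 15.93 in PBS at P70, and at 13.17 in OVA and 13.68 in PBS at P30. Both P70 arrays were far above both P30 arrays. P70 over P30 came to 7.38-fold in OVA and 4.77-fold in PBS, and 62 and 80 of the expressed genes had larger differences. OVA minus PBS was 0.12 at P70 and -0.51 at P30. The P30 value was a 1.43-fold lower level in OVA and the most negative OVA difference among the members at either age. At P30, 98.6% of expressed genes had a higher OVA minus PBS difference than Alox5ap.

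Lta4h encodes the hydrolase that makes leukotriene B4. Levels were 9.72 in OVA and 9.59 in PBS at P70, against 8.44 in OVA and 8.21 in PBS at P30. The P70 arrays were again the higher pair, by 2.43-fold in OVA and 2.59-fold in PBS. OVA minus PBS was 0.14 at P70 and 0.23 at P30.

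Ltc4s encodes the synthase that commits the pathway to cysteinyl leukotrienes. It measured 9.97 in OVA and 9.83 in PBS at P70, and 7.34 in OVA and 7.36 in PBS at P30. At P30 both arrays were barely above the floor, and at P70 both were well above it. The P70 level exceeded that of P30 by 6.22-fold in OVA and by 5.53-fold in PBS, where 47 expressed genes (0.533%) had a larger difference. OVA and PBS were close at each age, with differences of 0.15 at P70 and -0.02 at P30.

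Cysltr1, the receptor through which cysteinyl leukotrienes act on smooth muscle and leukocytes, followed the same order. Its values were 10.76 in OVA and 10.78 in PBS at P70, and 9.13 in OVA and 9.37 in PBS at P30. It was thus 3.11-fold higher at P70 in OVA and 2.67-fold higher in PBS, with OVA differences of -0.02 at P70 and -0.24 at P30.

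On the prostaglandin side, Hpgds, the haematopoietic synthase of prostaglandin D2, was clearly expressed. It read 15.45 in OVA and 15.43 in PBS at P70, against 13.99 in OVA and 14.22 in PBS at P30. The P70 level was 2.75-fold that of P30 in OVA and 2.31-fold in PBS. The difference between OVA and PBS was 0.02 at P70 and -0.23 at P30.

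The other 3 prostaglandin genes were under the floor on all 4 arrays. Ptgs2, the inducible cyclooxygenase, lay at 5.67 in OVA and 5.80 in PBS at P70 and at 6.06 in OVA and 6.16 in PBS at P30. Ptges, the inducible microsomal synthase of prostaglandin E2, read 6.71 in OVA and 6.86 in PBS at P70 and 6.89 in OVA and 6.90 in PBS at P30. Ptger4, the EP4 receptor for prostaglandin E2, read 6.13 in OVA and 5.97 in PBS at P70 and 6.00 in OVA and 5.75 in PBS at P30. The floor is not a detection limit, so a low level on these arrays does not show that a transcript was absent. The sizes of differences between such dim values are uncertain, and these 3 genes are not among the 6 expressed members counted below.

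**Figure D1:**
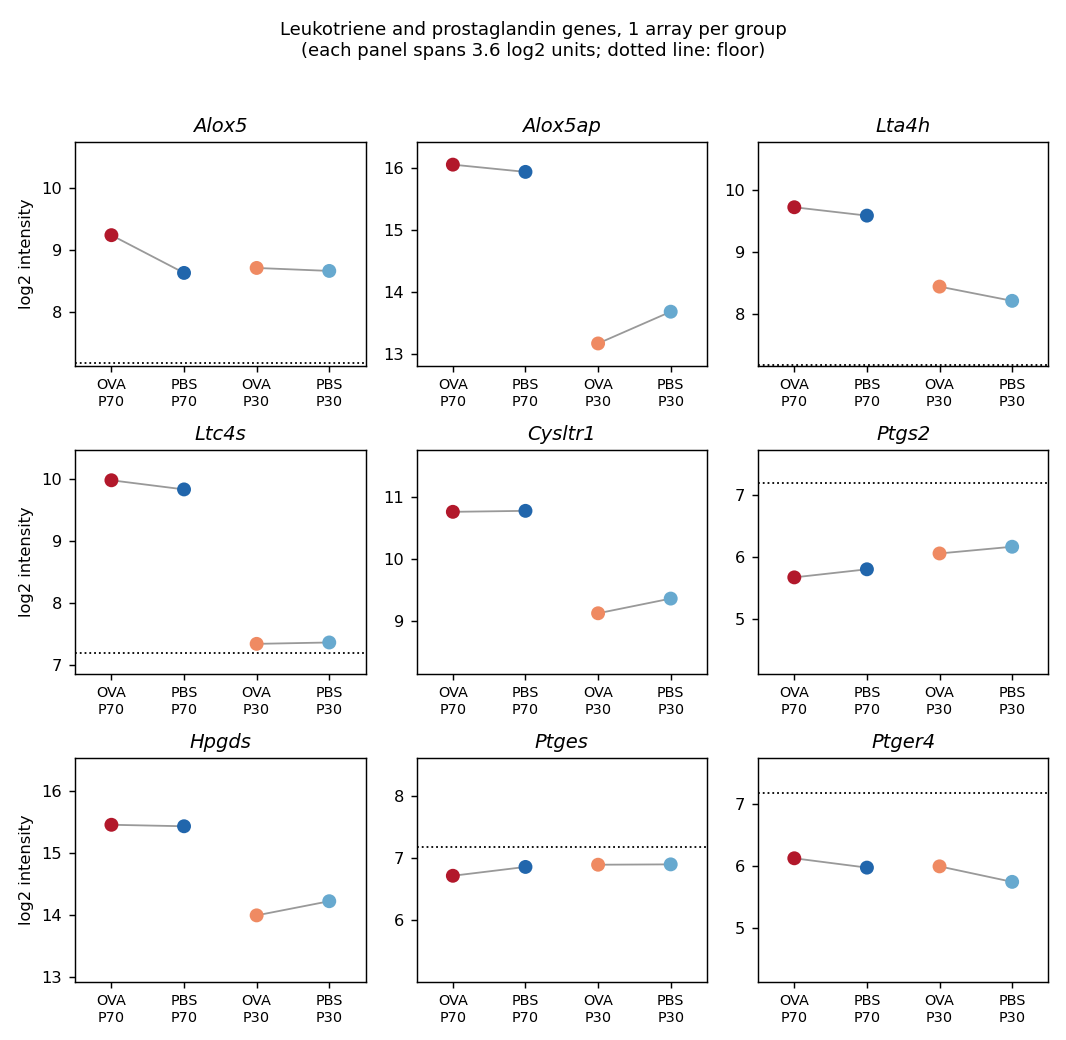
Levels of the 9 genes (log2 intensity, vertical axis) on the 4 arrays, 1 point per array, with lines joining OVA and PBS of the same age and a dotted line at the floor of 7.18. Each panel has its own centre and spans 3.6 log2 units; Alox5ap, Lta4h, Ltc4s, Cysltr1 and Hpgds are higher on both P70 arrays than on both P30 arrays, and Ptgs2, Ptges and Ptger4 lie under the floor throughout.

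The comparison of OVA with PBS addressed the response of microglia to airway allergy at each age. At P70, Alox5 alone of the 6 expressed members differed by at least 1.5-fold, where 5.23% of all expressed genes did so in either direction. The median difference of the 6 was 0.13 at P70, beside 0.09 over all expressed genes. At P30 none of the 6 differed by 1.5-fold, where 1.54% of expressed genes did. Their median there was -0.13, beside -0.01 over all expressed genes, and the values ran from -0.51 for Alox5ap to 0.23 for Lta4h. With 6 genes, counts of 1 and 0 do not set the members apart from those shares.

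The direction of the small differences at P70 depended on the scaling of the arrays. Alox5 was higher in OVA under every scaling tried, between 0.48 and 0.61. For Alox5ap, Lta4h, Ltc4s, Cysltr1 and Hpgds the value fell on either side of 0, and quantile normalization put Alox5ap at 0.60. At P30 the signs held under every scaling and with 16 intensity units added before log2. Alox5ap lay between -0.51 and -0.43, Hpgds between -0.24 and -0.18, Cysltr1 between -0.24 and -0.20 and Lta4h between 0.22 and 0.29. The filters on dim genes leave these values unchanged.

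Markers of other cells also differed between the OVA and PBS arrays. At P70, 5 of 9 expressed markers of border-associated macrophages were at least 1.5-fold higher in OVA (Mrc1, Pf4, Ms4a7, Dab2 and Clec10a), with Pf4 at 1.97. The log2 of the summed intensity of all 10 markers in that list was 12.9 in OVA and 11.6 in PBS at that age. Alox5 was also higher in OVA at P70, and the other 5 expressed members differed by between -0.02 and 0.15. At P30, 7 of 11 expressed neutrophil markers were at least 1.5-fold lower in OVA, with Retnlg at -1.95. The log2 of the summed intensity of all 13 neutrophil markers was 14.5 in OVA and 16.1 in PBS. Of the members at that age, Alox5ap (-0.51), Cysltr1 (-0.24), Hpgds (-0.23) and Ltc4s (-0.02) were lower in OVA. Lta4h (0.23) and Alox5 (0.05) were higher. Of the 5 monocyte markers at or above the floor on more than 1 array, S100a4 was at least 1.5-fold higher in OVA at P70 and none differed as much at P30. Treml4 reached the floor on the OVA P70 array alone and was not counted. Ttr, a marker of choroid plexus, was higher in OVA by 4.12 at P70 and 1.87 at P30, and 7 of the 9 markers in its list (choroid plexus, vascular, neural and glial cells) were under the floor on all 4 arrays. The part of these cells in the differences of the members was not tested.

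Ptgs2 is often induced together with immediate early genes. Of the 8 expressed immediate early genes that were at or above the floor on more than 1 array, 6 were at least 1.5-fold higher in OVA at P30, among them Jun (1.99) and Dusp1 (3.31). Fos and Atf3 reached the floor on the OVA P30 array alone and were not counted. Ptgs2 differed by -0.11 there, from levels under the floor. Mast cells are known for their leukotrienes and prostaglandin D2. Of the 13 markers of mast cells, basophils and eosinophils, 9 were under the floor on all 4 arrays, among them Cpa3, Fcer1a, Ms4a2 and Kit. Other mast cell genes stood higher. Tpsb2 lay at 7.47 in OVA and 7.74 in PBS at P70, and Mcpt4 at 7.25 in OVA and 7.32 in PBS at P30. Mcpt4 was under the floor at P70, and Cma1 was above it in PBS at P30 alone. The 2 expressed ones, Tpsb2 and Siglecf, were above it on all 4 arrays; Siglecf differed by -0.28 between OVA and PBS at P70 and by 0.02 at P30.

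**Figure D2:**
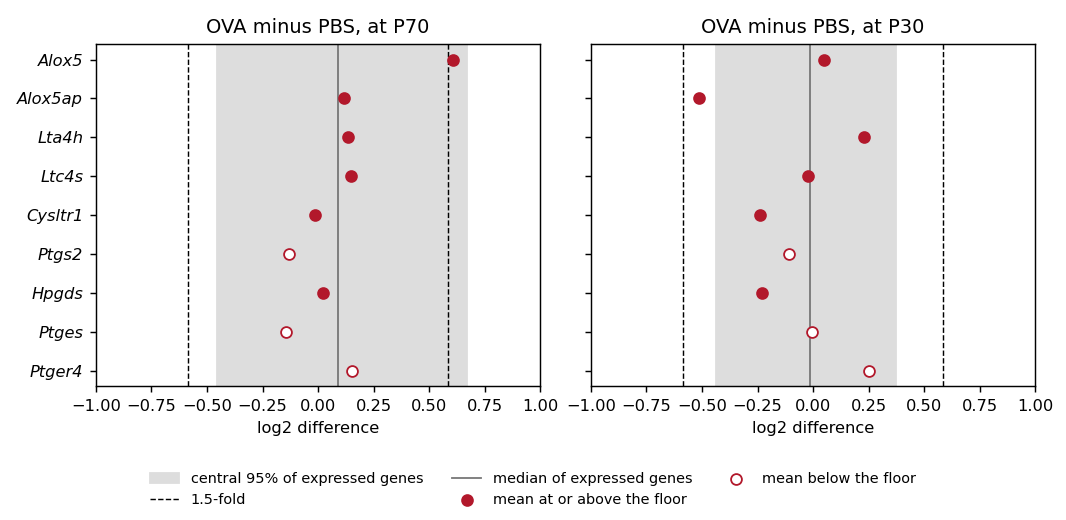
OVA minus PBS (log2 difference, horizontal axis) for the 9 genes at P70 (left) and P30 (right), with 1 point per gene, open where the mean level is below the floor. Grey bands hold the central 95% of expressed genes and dashed lines mark 1.5-fold; Alox5 at P70 (0.61) is the single point past a dashed line, and Alox5ap at P30 (-0.51) lies outside the grey band.

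Setting P70 against P30 within each treatment compared the ages. Of the 6 expressed members, 5 were at least 1.5-fold higher at P70 in OVA and the same 5 in PBS: Alox5ap, Lta4h, Ltc4s, Cysltr1 and Hpgds. None was 1.5-fold lower. Higher levels at P70 were common on these arrays: 38.6% of expressed genes were at least 1.5-fold higher in OVA and 29.1% in PBS, while 4.35% and 2.94% were lower by as much. Among the 4406 brightest genes, which held all 6 members, 60.6% were at least 1.5-fold higher in OVA and 47.2% in PBS. The median of the members was 1.55 in OVA and 1.39 in PBS, beside 0.39 and 0.26 over all expressed genes. Alox5 differed by 0.53 in OVA and -0.03 in PBS, and its OVA value turned to -0.07 after centring along the level.

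Relative to the median gene, Ltc4s was higher at P70 by 2.25 log2 units in OVA and 2.21 in PBS. Alox5ap, after centring each array on its median, was higher by 2.47 in OVA and 1.96 in PBS. Cysltr1 exceeded the median gene by 1.25 and 1.16, Hpgds by 1.08 and 0.95, and Lta4h by 0.89 and 1.12, again in OVA and in PBS. The median age difference was 0.75 in OVA and 0.55 in PBS over the 4406 brightest genes, above the 0.39 and 0.26 of all expressed genes, so the values were also centred along the level. Ltc4s then stood at 2.15 in OVA and 2.14 in PBS and Alox5ap at 1.71 and 1.22. Hpgds, a bright gene, dropped to 0.29 and 0.18, short of 1.5-fold. Under that setting 4 of the 6 members were at least 1.5-fold higher in each treatment, and 13.3% of expressed genes in OVA and 11.6% in PBS.

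**Figure D3:**
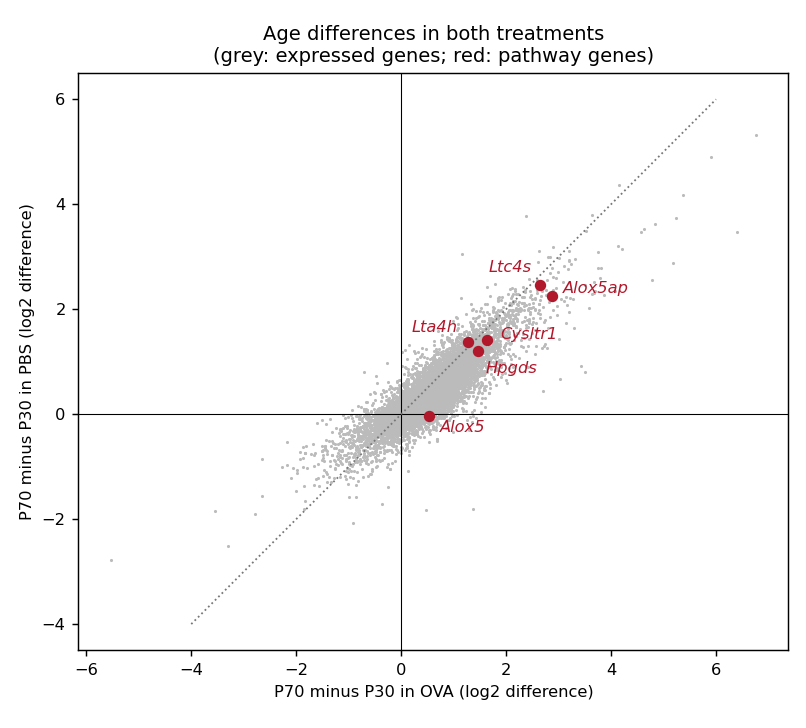
P70 minus P30 in OVA (horizontal) and in PBS (vertical), both as log2 differences, with 1 grey point for each of the 8812 expressed genes and red points for the 6 expressed members; the dotted line marks equal differences. Ltc4s and Alox5ap lie towards the upper end of the cloud, Lta4h, Cysltr1 and Hpgds in its upper part, and Alox5 near its centre.

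Blood cell markers also differed between the P70 and P30 arrays. In both treatments 10 of 11 expressed neutrophil markers were at least 1.5-fold higher at P70; S100a8 differed by 5.91 in OVA and 4.90 in PBS. The log2 of the summed neutrophil intensity was 19.5 at P70 and 14.5 at P30 in OVA, and 19.8 at P70 and 16.1 at P30 in PBS. Without Treml4, the 5 monocyte markers were at least 1.5-fold higher at P70 in both treatments, with Ly6c2 at 4.16 in OVA and 4.37 in PBS and a median of 2.45 and 1.91. Neutrophils and monocytes are known to express Alox5, Alox5ap and Lta4h. Alox5ap and Lta4h were at least 1.5-fold higher at P70 in both treatments, while Alox5 differed by 0.53 in OVA and -0.03 in PBS. The part of neutrophils and monocytes in the age differences was not tested. Microglial markers differed as well: P2ry12 was higher at P70 by 2.36 in OVA and 1.84 in PBS, and Sall1 by 1.15 and 0.82. The median over the 9 microglial markers was 0.57 in OVA and 0.49 in PBS.

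**Figure D4:**
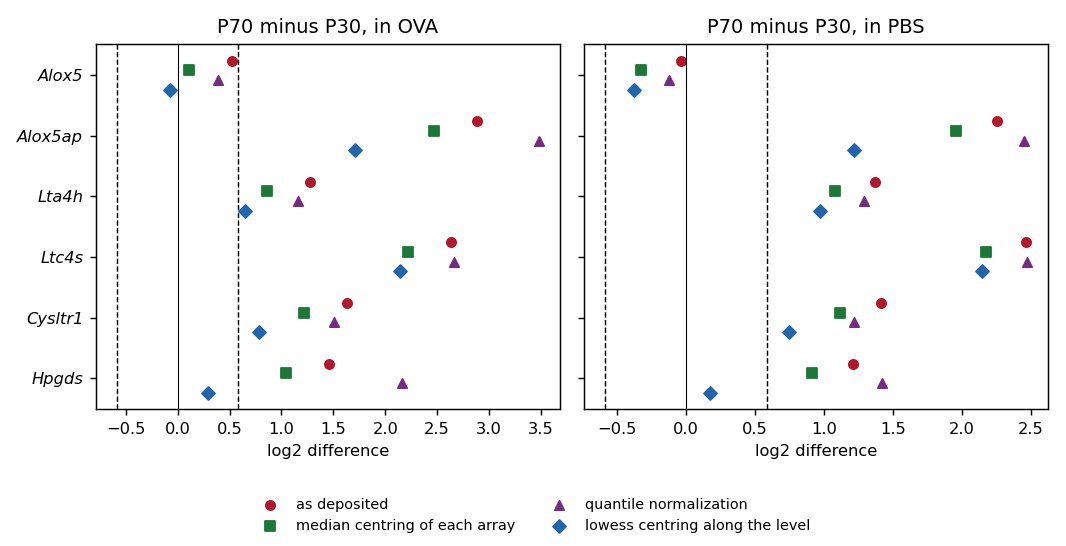
P70 minus P30 (log2 difference, horizontal axis) of the 6 expressed members in OVA (left) and PBS (right) as deposited and under 3 other scalings of the arrays, 1 point each; dashed lines mark 1.5-fold. Ltc4s lies between 2.14 and 2.66 in every case, whereas Hpgds runs from 0.18 to 2.16 and falls inside the dashed lines after centring along the level.

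The difference between the OVA effects at the 2 ages was taken as OVA minus PBS at P70 less the same at P30. It was 0.63 for Alox5ap and 0.56 for Alox5, and between -0.09 for Lta4h and 0.25 for Hpgds in the other 4 expressed members. Alox5ap alone reached 1.5-fold, in the positive direction, where 7.78% of expressed genes did so; 2.26% did so in the negative direction. The Alox5ap value came to 0.51 after centring each array and 0.42 after centring along the level, both short of 1.5-fold. Quantile normalization raised it to 1.03, and there Hpgds also passed 1.5-fold, at 0.74.

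Among the members, Cysltr1 and Hpgds had the closest profiles over the 4 arrays, with a root mean square distance of 0.096 log2 units between profiles centred on their own mean. Alox5ap and Ltc4s were 0.17 apart and Lta4h and Hpgds 0.17, whereas Alox5 was 1.19 from its partner Alox5ap. Across all expressed genes, the 4 profiles closest to Alox5ap were those of Ifi30 (0.079), Prdx4 (0.082), COX2 (0.099) and Atp6v0e (0.11). This COX2 is the mitochondrially encoded subunit of cytochrome c oxidase and not the cyclooxygenase. Closest to Ltc4s were Vps28 (0.046), Lamtor3 (0.048), Tnfsf13b (0.052) and Rpl18-ps2 (0.061), and closest to Cysltr1 were Rps12-ps21, Brk1 and Psma6 (0.027 each) and Samhd1 (0.029). The 2 ribosomal pseudogenes may share probes with their parent genes, and likeness over 4 arrays is a description.

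The rest of the pathway was read from a list of 56 genes, of which 51 were found and 21 were expressed. None of the 21 differed by 1.5-fold between OVA and PBS at either age, where 5.23% of all expressed genes did at P70 and 1.54% at P30. With 21 genes, a count of 0 does not set the list apart from those shares. Of the 21, 16 were higher in OVA at P70 and 4 at P30 as deposited, where 65.0% and 46.3% of all expressed genes were. These signs were not counted under other scalings, and small differences at P70 can change sign with the scaling. The median was 0.12 at P70 and -0.11 at P30. With age, 7 of the 21 were at least 1.5-fold higher at P70 in OVA and 4 in PBS, and none was lower by as much in either. Over all expressed genes 38.6% were higher in OVA and 29.1% in PBS, and 4.35% and 2.94% were lower by as much. The direction depended on the scaling: after centring each array on its median, 2 of the 21 were at least 1.5-fold higher and 4 lower in each treatment. Of the 8812 expressed genes, 1725 were then higher and 1251 lower in OVA, and 1536 higher and 737 lower in PBS. After centring along the level, 1 was at least 1.5-fold higher and 2 lower in OVA, and 1 higher and 3 lower in PBS. Under that setting 1169 of the 8812 expressed genes were higher and 953 lower in OVA, and 1024 higher and 768 lower in PBS.

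Pla2g4a, the cytosolic phospholipase A2 that releases arachidonic acid from membranes, stood at 11.44 in OVA and 11.41 in PBS at P70 and at 9.98 in OVA and 10.40 in PBS at P30. It was higher at P70 by 1.46 in OVA and 1.01 in PBS. The microsomal glutathione transferase gene Mgst1 read 8.90 in OVA and 8.64 in PBS at P70 and 7.22 in OVA and 7.47 in PBS at P30, for age differences of 1.67 and 1.18. Mgst2, whose product can also make leukotriene C4, differed with age by 0.52 in OVA and 0.67 in PBS. Pla2g4a, Mgst1 and Mgst2 were thus higher at P70 in both treatments, as were Alox5ap and Ltc4s. That order was common on these arrays: 76.7% of expressed genes in OVA and 72.1% in PBS were higher at P70. The 3 genes are named because they passed 1.5-fold in at least 1 comparison.

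Among prostanoid synthases, Ptges3, a cytosolic prostaglandin E synthase and Hsp90 co-chaperone, was higher at P70 by 0.99 in OVA and 0.41 in PBS. Prxl2b, a prostamide and prostaglandin F synthase, differed by 1.00 and 0.23. Tbxas1, the thromboxane synthase, was expressed at 11.93 in OVA and 11.70 in PBS at P70 and 11.40 in OVA and 11.70 in PBS at P30, and reached 1.5-fold in none of the 4 comparisons. Of the inactivating enzymes, the prostaglandin dehydrogenase gene Hpgd differed with age by 0.74 in OVA and 0.56 in PBS, and the reductase genes Ptgr1 by 0.73 and 0.39 and Ptgr2 by 0.72 and 0.63. Of 8 prostanoid receptor genes besides Ptger4, 2 were expressed, Ptger1 and Ptger3, with means of 7.37 and 7.35 just above the floor. Of the 4 leukotriene and lipoxin receptor genes found besides Cysltr1, Gpr17 alone was expressed; it differed with age by -0.49 in OVA and -0.52 in PBS. Tbxas1, Ptger1, Ptger3 and Gpr17, like the markers Dab2, Clec10a, Siglecf, Tpsb2, Mcpt4, Cma1, Treml4, S100a4 and Atf3, were named after their values were seen.

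**Figure D5:**
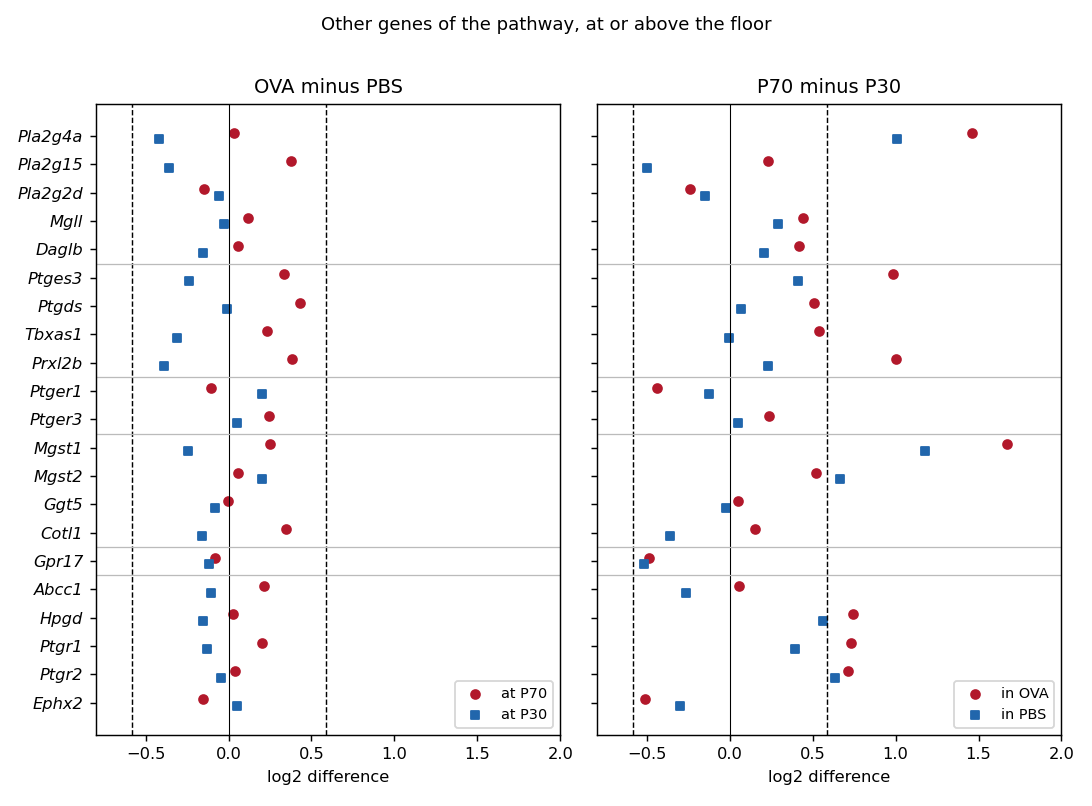
Log2 differences (horizontal axis) of the 21 expressed genes of the wider pathway list as deposited, OVA minus PBS on the left (red at P70, blue at P30) and P70 minus P30 on the right (red in OVA, blue in PBS), with grey lines between groups by role and dashed lines at 1.5-fold. No point on the left passes a dashed line; on the right, Mgst1 (1.67 in OVA) and Pla2g4a (1.46 in OVA) lie farthest out.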

How the data were processed

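Microglial RNA of 4 pools was hybridised to 1-colour arrays after amplification with the GeneChip WT Pico kit, per the labels' protocols. Each probe set has 1 linear intensity per array in the table the authors deposited. RMA and version 1.4.1 of Affymetrix Expression Console are named, with no role given, per the submitters' processing notes. How arrays were scaled to each other, and the genome build, are not given in the sources used here.

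Intensities were log2 transformed and not normalized again. Of 65956 probe sets, 30604 had 1 symbol in the platform annotation, 2146 several and 33206 none here; 827 symbols were updated through Entrez IDs with the RefSeq table of GRCm38.p6. Predicted genes, small RNAs, chemosensory receptors and antigen receptor segments (12743 probe sets) were left out, and 195 genes with several probe sets kept the brightest. A difference of at least 1.5-fold was counted; steps were tested on simulated data. Named genes were all members, wider-list genes past 1.5-fold, the first 3 markers of a list and those with the largest OVA difference, and the 4 profiles nearest to each of the 3 members with the widest range. Members and lists were chosen with earlier results of these data known. Python 3.11.15, numpy 2.4.6 and pandas 2.3.3 were used. Alternatives covered scaling, filter, probe set, gene set, pseudocount and fold.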

Additional observations from a re-analysis of the deposited data

Results flagged for a closer look

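The OVA differences of Alox5ap at the 2 ages pointed opposite ways, 0.12 at P70 and -0.51 at P30, and differed by 0.63 log2 units. The P70 sign depended on scaling, at 0.01 after median centring and -0.04 after lowess centring. Each is a difference between 2 single arrays, so the difference between them was not tested. No group holds enough arrays for a sample to stand apart from the others of its group.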

How the results depend on the processing

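A total of 10 alternatives was run. Over the counts of members and of the wider list, 75 of 90 values stayed within 1.5 times the count as deposited and 15 did not. Over single members, 394 of 405 stayed on their side of 1.5-fold and 11 did not (3 of them Ptgs2 or Ptges, under the floor). No member value past 1.5-fold changed sign. Much of the agreement over single members was fixed in advance. Filters, the mean of probe sets and the choice of gene set cannot change the value of a member with 1 probe set. Only the other scalings and the pseudocount could change it. The count of members past 1.5-fold between OVA and PBS at P70 (1 as deposited) was 0 after median centring, 0 after lowess centring along the level, 0 at a 2-fold threshold and 2 after quantile normalization. The count for the difference of the OVA differences (1) was likewise 0, 0 and 0 under those 3 settings and 2 after quantile normalization. The wider list at P70 (0) had 1 gene past 1.5-fold with no filter on dim genes and 1 with the filter on the highest array. With age in OVA (7), it had 3 after lowess centring, 11 with no filter and 2 at 2-fold; with age in PBS (4), 1 under the stricter filter and 2 at 2-fold. Its count after median centring stayed near that as deposited (6 in each treatment), but was made of 2 higher and 4 lower genes. Leaving out markers above the floor on 1 array alone was chosen after seeing the data; with them, 8 of 10 immediate early genes were higher in OVA at P30, 2 of 6 monocyte markers were higher in OVA at P70, and with age 6 of 6 were higher in OVA and 5 of 6 in PBS. Why scalings moved these counts was not tested; fewer or more genes enter under other filters. Hpgds came to 0.29 in OVA and 0.18 in PBS for age after lowess centring. Over all expressed genes, calls higher at P70 with age in OVA were 3403 of 3786 as deposited, against 1725 of 2976 after median centring and 1169 of 2122 after lowess centring. In PBS they were 2564 of 2823, 1536 of 2273 and 1024 of 1792. Between OVA and PBS at P70 the higher calls were 353 of 461, 202 of 385 and 172 of 335. No paired analysis was possible because each group has 1 array.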
